A study of Mus musculus with 12 samples.

Results

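The genes described here encode 6 proteins that move ions across the acinar cells of the mouse submandibular gland (SMG), the gland that makes much of the saliva at rest. They were chosen by name, as chloride and potassium transport genes of salivary acini, from a count table of 56065 genes: Slc12a2, Atp1b1, Ano1, Kcnn4, Kcnma1 and Slc4a2. All 6 passed the filter on low counts, which left 17893 genes to test. Bulk RNA-sequencing of SMGs taken at 8 weeks of age gave 12 libraries, with 3 biological replicates in each of 4 groups. The groups were female C57BL/6J wild type, female C57BL/6J-Pou2f3 knockout, male C57BL/6J wild type and male C57BL/6J-Pou2f3 knockout. The knockout (Pou2f3-/-) is a deletion in the whole body, so tuft cells, the rare chemosensory duct cells that depend on Pou2f3, are lost in other organs too. The comparisons asked how genotype and sex bear on the RNA of the gland.

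Acini make primary saliva by driving chloride into the lumen. The sodium pump, of which Atp1b1 is the beta subunit, keeps cell sodium low, and that gradient lets the basolateral cotransporter NKCC1, encoded by Slc12a2, load the cell with chloride together with sodium and potassium. The anion exchanger AE2, encoded by Slc4a2, is a further basolateral route for chloride, in exchange for bicarbonate. When a nerve signal raises cell calcium, the apical chloride channel TMEM16A, encoded by Ano1, opens, and the calcium-activated potassium channels encoded by Kcnn4 (intermediate conductance) and Kcnma1 (large conductance) keep the voltage that drives chloride out. Sodium follows between the cells and water follows largely through aquaporin 5 (Aqp5).

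The libraries held between 47032175 and 67882207 counts, so counting error is small for every member. Pou2f3 itself had at most 10 rounded counts in any library, wild type included, so its level does not check the genotype labels. The acinar markers Pip (a secreted protein, the most abundant of the 7 listed) and Aqp5 and all 8 duct markers were detected in every library. Some libraries stood apart. Muc19, the mucin of the adjoining sublingual gland, was at 4901 CPM (counts scaled to the library total, adjusted by TMM) in female Pou2f3-/- replicate 3 and at 7391 CPM in male wild-type replicate 3, against at most 174 CPM elsewhere. The summed CPM of 4 adipocyte markers was 41.2 in female wild-type replicate 3, 31.4 in male Pou2f3-/- replicate 2 and 15.1 in male Pou2f3-/- replicate 3, against at most 5.50 in the other libraries. Both male Pou2f3-/- libraries just named also had the highest sums of the 4 erythroid markers, at 9.73 and 7.43 CPM, against at most 3.44 in the others. The summed CPM of 4 macrophage markers was 98.2 in female wild-type replicate 1, which was the lowest of its group for Slc12a2, Atp1b1, Ano1 and Kcnn4, and 86.9 and 80.0 in male Pou2f3-/- replicates 2 and 3, against at most 51.8 elsewhere. The part of these markers was not tested. The results below are given with and without these libraries where a call changes.

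**Figure D1:**
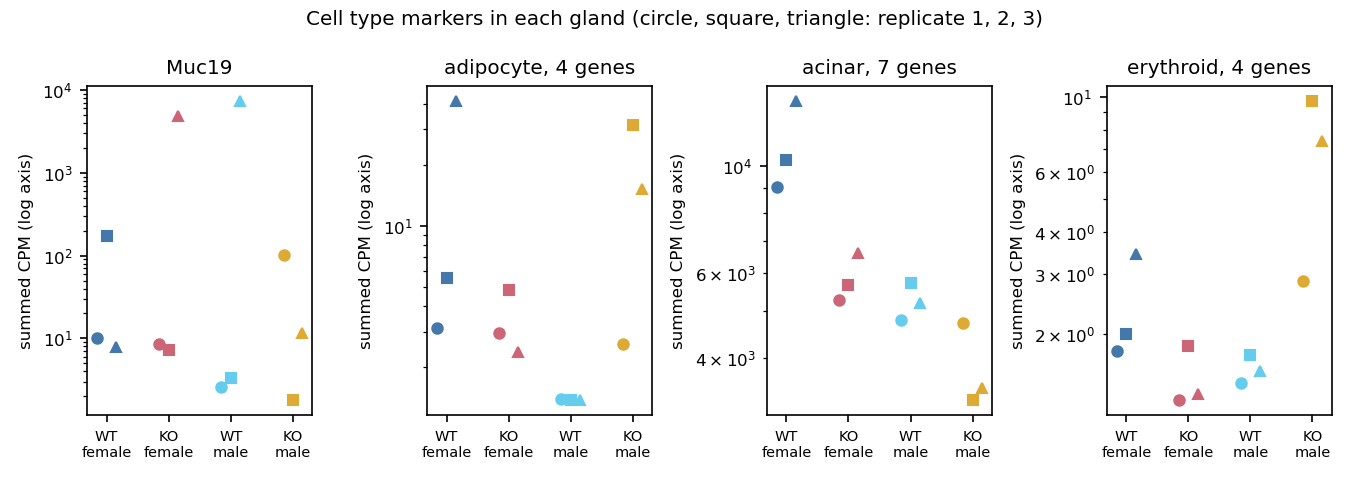
Summed TMM-adjusted CPM (log axis) of the sublingual gland mucin Muc19, of 4 adipocyte, 7 acinar and 4 erythroid marker genes in each of the 12 glands, with WT for wild type and KO for Pou2f3-/-. Female Pou2f3-/- replicate 3 and male wild-type replicate 3 stand apart for Muc19 at 4901 and 7391 CPM, and female wild-type replicate 3 and male Pou2f3-/- replicates 2 and 3 stand apart for the adipocyte markers.

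The upstream sequences of the calcium-activated channel genes and of Slc4a2, the member that went the other way, are shown so that control elements can be looked for. That of Slc12a2 was not used here. For the 5 other members a RefSeq start site on GRCm38.p6 was matched, and the 250 bases before the start of Kcnn4 (chr7:24370013-24370262, plus strand), Ano1 (chr7:144738574-144738823, minus strand), Kcnma1 (chr14:24004206-24004455, minus strand) and the upstream start of Slc4a2 (chr5:24424982-24425231, plus strand) are printed 5′ to 3′ on the strand of the gene. Capitals mark the GC box GGGCGG or its reverse complement CCGCCC.

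Kcnn4: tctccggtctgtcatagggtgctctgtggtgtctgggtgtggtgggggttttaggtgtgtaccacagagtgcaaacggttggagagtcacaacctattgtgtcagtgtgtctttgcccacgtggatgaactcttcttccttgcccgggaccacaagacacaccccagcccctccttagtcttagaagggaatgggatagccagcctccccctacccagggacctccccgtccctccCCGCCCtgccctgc

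Ano1: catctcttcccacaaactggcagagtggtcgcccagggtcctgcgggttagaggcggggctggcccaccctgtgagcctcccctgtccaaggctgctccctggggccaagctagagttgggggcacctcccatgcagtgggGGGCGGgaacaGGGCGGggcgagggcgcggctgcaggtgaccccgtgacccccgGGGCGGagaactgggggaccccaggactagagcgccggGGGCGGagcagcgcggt

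Kcnma1: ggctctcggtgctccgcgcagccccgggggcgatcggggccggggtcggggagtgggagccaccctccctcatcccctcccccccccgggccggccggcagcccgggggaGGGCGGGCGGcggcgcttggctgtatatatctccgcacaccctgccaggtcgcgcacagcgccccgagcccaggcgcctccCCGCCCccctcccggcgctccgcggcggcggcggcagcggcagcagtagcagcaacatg

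Slc4a2: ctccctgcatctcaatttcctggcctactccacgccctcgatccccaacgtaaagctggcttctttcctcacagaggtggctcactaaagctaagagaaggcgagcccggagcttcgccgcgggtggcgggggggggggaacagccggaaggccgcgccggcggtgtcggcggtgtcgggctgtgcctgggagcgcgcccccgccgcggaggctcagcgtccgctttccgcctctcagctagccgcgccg

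With overlapping copies counted separately, the GC box was found 4 times in the Ano1 window, 3 times in that of Kcnma1, 2 times in that of Atp1b1, 1 time in that of Kcnn4 and in neither window of Slc4a2. It is present in 32.7% of 32851 RefSeq windows of the same length. The E-box CATATG was in none of the members' windows and occurs in 3.46% of all windows. The letters of a steroid receptor element, TGTTCT, searched on either strand, were also in none of them, against 16.1% of all windows. The same held on either strand for the TATA box TATAAA, against 12.4%. Kcnma1 had the highest G and C content of those shown, at 79.2%, and Kcnn4 the lowest, at 58.8%, against a median of 52.4% over all windows. These matches describe letters only.

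Per kilobase of merged exons, the only scale on which the levels of different genes are ranked here, Slc12a2 and Atp1b1 were the most abundant members. In female wild-type SMGs, Slc12a2 was at 164 ± 41 CPM per kb and Atp1b1 at 157 ± 27 (SD, n = 3 here and below), which did not differ beyond their spread. Kcnn4 came next at 25.5 ± 3.1, then Ano1 at 20.3 ± 3.1, Kcnma1 at 6.43 ± 0.60 and Slc4a2 at 1.34 ± 0.13. In the other 3 groups, Atp1b1 ranked above Slc12a2 and Ano1 above Kcnn4. The gap between Atp1b1 and Slc12a2 exceeded their spread in male SMGs, at 123 ± 11 against 74.9 ± 17.1 in wild type and 104 ± 17 against 48.9 ± 13.2 in Pou2f3-/-, but not in female Pou2f3-/- SMGs, at 108 ± 16 against 99.2 ± 12.5. Ano1 and Kcnn4 lay within their spread of each other in both female groups and in male Pou2f3-/- SMGs, at 10.2 ± 3.2 and 7.43 ± 1.62, and apart in male wild-type SMGs, where Kcnn4 was at 10.5 ± 0.7 and every Ano1 value lay higher. Kcnma1 in male Pou2f3-/- SMGs was at 2.84 ± 0.61, within the spread of Slc4a2 at 2.03 ± 0.29. With the longest transcript as the length, the order was the same in 2 of the 4 groups, both wild type. In Pou2f3-/- glands it changed only between neighbours that lie within their spread of each other here.

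Slc12a2 lies on chromosome 18 (58011164-58080812, plus strand; GRCm39, as are the gene positions below). In CPM, female wild-type replicates 1 to 3 had 1526, 2190 and 2541, and female Pou2f3-/- replicates had 1088, 1399 and 1293. Male wild-type replicates had 829, 1203 and 823, and male Pou2f3-/- replicates had 814, 510 and 539. Every Pou2f3-/- library lay below every wild-type library of the same sex, and every male library below every female library of the same genotype, although male wild-type replicate 3 and male Pou2f3-/- replicate 1 lay close together. Slc12a2 fell in female Pou2f3-/- SMGs to 60.4% of the wild-type mean, a log2 fold change of -0.73 ± 0.24 (SE; adjusted p = 0.030, edgeR quasi-likelihood test with Benjamini-Hochberg adjustment over all genes tested, as for every adjusted p of a group difference below). In bulk tissue, fewer cells of a type and less RNA per cell cannot be told apart. In males the log2 difference was -0.62 ± 0.24 and did not pass the test (adjusted p = 0.32). Male wild-type SMGs had 45.6% of the female level (-1.13 ± 0.24, adjusted p = 0.0026) and male Pou2f3-/- SMGs 49.3% of theirs (-1.02 ± 0.24, adjusted p = 0.0041). Without the libraries high in adipocyte markers, which leaves 1 male Pou2f3-/- gland, the latter was -0.60 and was no longer called. The female genotype call was lost without female wild-type replicate 2 or 3 or without female Pou2f3-/- replicate 1, with adjusted p between 0.054 and 0.091 and log2 differences between -0.60 and -0.74. It was also lost without either set of libraries that stood apart, those high in Muc19 (-0.75, adjusted p = 0.083) or in adipocyte markers (-0.60, adjusted p = 0.086).

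Atp1b1 lies on chromosome 1 (164264678-164285957, minus strand). Its CPM was 613, 837 and 839 in female wild-type replicates 1 to 3, 497, 613 and 463 in female Pou2f3-/-, 536, 636 and 619 in male wild-type and 598, 466 and 445 in male Pou2f3-/- replicates. The female groups met at the edge without overlap, at 613.2 and 612.5 CPM, and the groups overlapped in the other comparisons. Atp1b1 fell in female Pou2f3-/- SMGs (-0.54 ± 0.17, adjusted p = 0.027). That call was lost without female wild-type replicate 2 or 3 or female Pou2f3-/- replicate 1 or 3 (adjusted p 0.059 to 0.067), and without the libraries high in Muc19 (-0.46, adjusted p = 0.13) or in adipocyte markers (-0.51, adjusted p = 0.082). With upper-quartile scaling it was -0.44 (adjusted p = 0.051). No other single comparison of Atp1b1 passed: the log2 differences were -0.25 ± 0.17 for genotype in males (adjusted p = 0.64), -0.35 ± 0.17 for sex in wild type (adjusted p = 0.13) and -0.06 ± 0.17 for sex in Pou2f3-/- glands (adjusted p = 0.81). The last has a 95% interval of -0.43 to 0.32. The sex difference in wild type passed without female wild-type replicate 1, at -0.53 (adjusted p = 0.024), and in DESeq2, at -0.40 (adjusted p = 0.035).

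Ano1 lies on chromosome 7 (144142278-144305711, minus strand). In replicates 1 to 3 its CPM was 109, 140 and 146 in female wild-type and 124, 99.4 and 94.6 in female Pou2f3-/- SMGs, and these groups overlapped. Male wild-type replicates had 96.3, 97.5 and 98.1 and male Pou2f3-/- replicates 89.7, 56.1 and 52.4, without overlap. Male Pou2f3-/- replicate 1 lay near the wild-type libraries and replicates 2 and 3 well below them. Of the 4 comparisons, only sex in Pou2f3-/- glands passed the test for Ano1, which was lower in males (-0.68 ± 0.19, adjusted p = 0.011). It no longer passed without female Pou2f3-/- replicate 1 or male Pou2f3-/- replicate 2 or 3 (adjusted p 0.054 to 0.070). The call was also lost, at -0.21, without the libraries high in adipocyte markers, which leaves 1 male Pou2f3-/- gland. The genotype differences were -0.31 ± 0.19 in females (adjusted p = 0.21) and -0.56 ± 0.19 in males (adjusted p = 0.26). The sex difference in wild type was -0.44 ± 0.19 (adjusted p = 0.088). Without male Pou2f3-/- replicate 1, the genotype difference in males was -0.84 and passed (adjusted p = 0.015). The sex difference in wild type passed without female wild-type replicate 1 (-0.60, adjusted p = 0.030) and without male Pou2f3-/- replicate 1, which enters through the shared spread (adjusted p = 0.022). It also passed with upper-quartile scaling (-0.52), in a fit to only the wild-type groups (-0.46) and in DESeq2 (-0.48), with adjusted p of 0.037, 0.027 and 0.032.

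Kcnn4 lies on chromosome 7 (24066915-24086115, plus strand). Its CPM was 174, 222 and 208 in female wild-type replicates 1 to 3 and 118, 97.5 and 110.5 in female Pou2f3-/- replicates. Male wild-type replicates had 78.6, 89.4 and 80.8 CPM and male Pou2f3-/- replicates 73.3, 52.2 and 50.3. No groups compared overlapped, and the female wild-type libraries stood far above all the others. Kcnn4 fell in female Pou2f3-/- SMGs to 54.1% of wild type (-0.89 ± 0.15, adjusted p = 0.00098), and this call held in every setting tried, each library left out in turn included. In males the difference was -0.50 ± 0.15 (adjusted p = 0.21), and it passed only without male Pou2f3-/- replicate 1 (-0.69, adjusted p = 0.020). Male wild-type SMGs had 41.3% of the female level (-1.28 ± 0.15, adjusted p = 3.5e-05), and male Pou2f3-/- SMGs 53.9% of theirs (-0.89 ± 0.15, adjusted p = 0.00051). Without the libraries high in adipocyte markers, which leaves 1 male Pou2f3-/- gland, the latter was -0.54 and was no longer called.

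Kcnma1 lies on chromosome 14 (23339499-24064559, minus strand). Female wild-type replicates 1 to 3 had 116, 114 and 97.6 CPM and female Pou2f3-/- replicates 103, 86.9 and 107, which overlapped. Male wild-type replicates had 85.2, 79.5 and 78.7 and male Pou2f3-/- replicates 59.8, 45.4 and 39.6, the lowest values of this gene. Genotype gave -0.14 ± 0.14 in females (adjusted p = 0.48, 95% interval -0.45 to 0.17). In males it gave -0.75 ± 0.15, which was the smallest adjusted p among the members there but missed the threshold (0.068). The male difference passed with DESeq2 (-0.73, adjusted p = 0.00025) and without male Pou2f3-/- replicate 1 (-0.93, adjusted p = 0.0049). Kcnma1 was lower in males than in females, by -0.43 ± 0.14 in wild type (adjusted p = 0.034) and by -1.04 ± 0.15 in Pou2f3-/- glands (adjusted p = 0.00011). The wild-type call was lost when any library of that comparison other than female wild-type replicate 3 was left out, with adjusted p between 0.055 and 0.097. It was -0.41 (adjusted p = 0.11) without the libraries high in Muc19 and -0.29 (adjusted p = 0.18) with the gene-wise factors of the deposited normalized table.

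Slc4a2 lies on chromosome 5 (24628835-24645948, plus strand) and went the other way. Its CPM was 12.8, 13.8 and 11.3 in female wild-type replicates 1 to 3, below all 9 other libraries. Female Pou2f3-/- replicates had 19.8, 15.9 and 17.3, male wild-type replicates 21.5, 20.4 and 20.9, and male Pou2f3-/- replicates 22.3, 17.6 and 17.6. Slc4a2 rose in female Pou2f3-/- SMGs (0.48 ± 0.12, adjusted p = 0.0071) and was higher in male than in female wild-type SMGs (0.73 ± 0.12, adjusted p = 0.00039). Both calls held in every setting tried. The genotype difference in males was -0.13 ± 0.12 (adjusted p = 0.74), and the sex difference in Pou2f3-/- glands 0.12 ± 0.12 (adjusted p = 0.44), with a 95% interval of -0.13 to 0.37. The latter turned to -0.04 with upper-quartile scaling and to -0.07 with the gene-wise factors of the deposited normalized table.

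**Figure D2:**
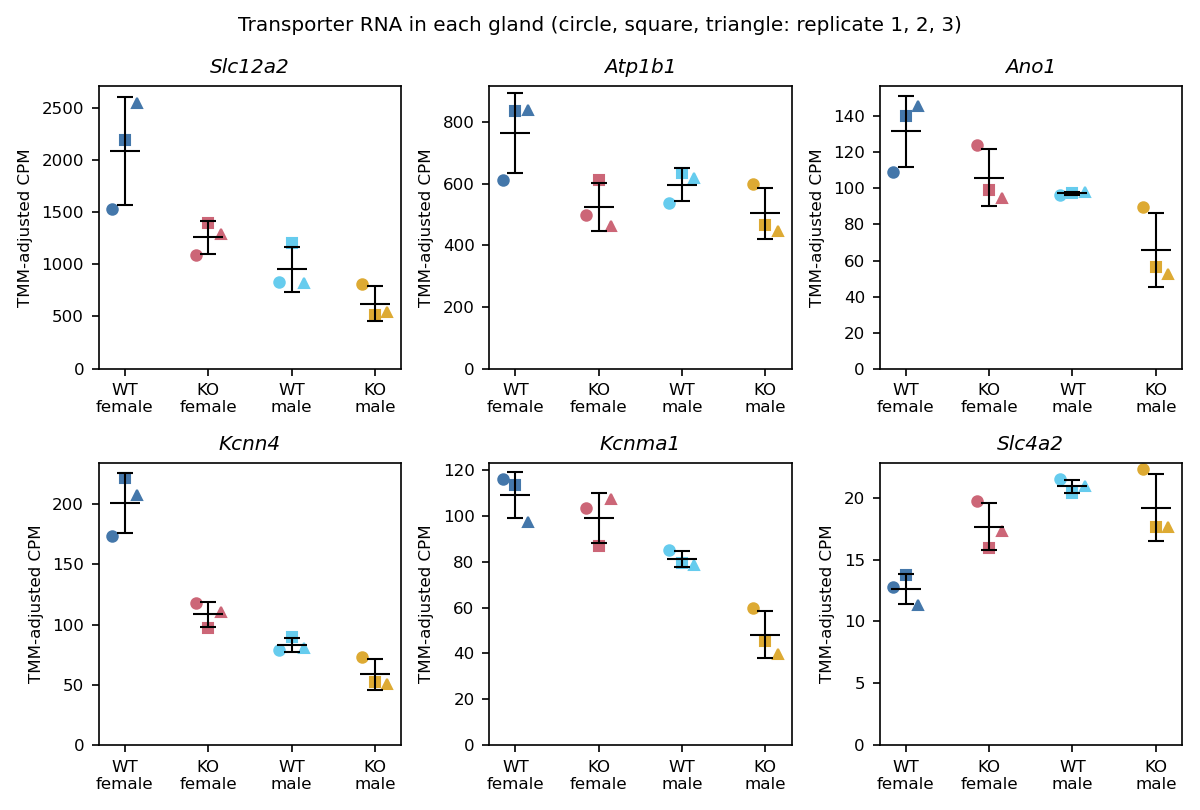
Level of each member in TMM-adjusted CPM (linear axes from 0) in the 12 glands, with points for replicates 1 to 3 and bars for the mean ± SD of each group of 3, with WT for wild type and KO for Pou2f3-/-. The mean of Kcnn4 is 201 CPM in female wild-type and 58.6 in male Pou2f3-/- glands, whereas Slc4a2 is lowest in female wild-type glands at a mean of 12.6 CPM.

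Counted together, 3 members were called lower and 1 higher in female Pou2f3-/- than in wild-type SMGs, where 36.9% of all genes tested were called (19.3% lower and 17.6% higher). The members' median log2 fold change was -0.43, against 0.03 over all genes tested. Other markers moved in the same comparison: 4 of 6 myoepithelial and smooth muscle markers were called lower, the sum of the 7 listed being 128 to 179 CPM in wild-type and 96.2 to 116 in Pou2f3-/- females, and the summed endothelial markers were at 27.1 to 32.2 and 21.9 to 25.8 CPM. The TMM factors were 0.63 to 0.76 in wild-type and 0.90 to 1.03 in Pou2f3-/- females, while protein-coding genes held 57.6 to 65.5% and 52.1 to 56.2% of their counts and the small RNA Rn7s1 up to 34.5% and 39.1%. The part of these in the result was not tested. In males all 6 differences were negative with a median of -0.53 (-0.04 over all genes) and 0 were called by edgeR, where 0.235% of genes were. Without the libraries high in adipocyte markers, 2 of the 6, Atp1b1 and Slc4a2, were above 0. Over all settings tried, the male difference ran from -0.86 to -0.22 for Slc12a2 and from -0.84 to -0.11 for Ano1. It ran from -0.69 to -0.17 for Kcnn4 and from -0.93 to -0.44 for Kcnma1. With every library, 4 members had an unadjusted p under 0.05 in males, beside 11.5% of all genes. DESeq2 called 1, Kcnma1, beside 2.42% of all genes it tested. Without male Pou2f3-/- replicate 1, where Ano1, Kcnn4 and Kcnma1 passed, the calls over all genes rose from 42 of 17893 to 635 of 18575. Markers of ionocytes, the duct cells rich in proton pumps, moved with genotype in both sexes. Of the 3, Ascl3 (-0.95) and Foxi1 (-0.48) were called lower in female and Foxi1 (-0.83) and Atp6v1b1 (-0.99) in male Pou2f3-/- SMGs. Their sum was 21.6 to 31.8 CPM in wild-type and 16.3 to 21.7 in Pou2f3-/- females, and 34.0 to 43.0 and 17.4 to 22.1 in males, and its part was not tested. For sex in wild-type glands, 3 members were lower and 1 was higher in males, where 36.5% of all genes were called (16% lower and 20.5% higher). In Pou2f3-/- glands 4 were lower in males and 0 higher, where 43.5% of all genes were called (20.3% lower and 23.2% higher). Without the 3 libraries high in adipocyte markers, 1 male Pou2f3-/- gland is left, which gives no spread of its own. Slc12a2, Kcnn4 and Ano1 were then at -0.60, -0.54 and -0.21, all smaller differences than with every library, and their calls did not hold. Kcnma1 lay between -1.22 and -0.70 over all settings tried. The 4 endothelial markers moved with sex, 4 being called lower in wild-type males (median -0.93) and 3 in Pou2f3-/- males. Their sum was 15.5 to 17.8 CPM in wild-type and 13.6 to 17.9 in Pou2f3-/- males, below all female libraries. Of 8 duct markers, 4 were called higher and 1 lower in wild-type males and 7 higher and 1 lower in Pou2f3-/- males, and their sum was 331 to 419 CPM in females and 431 to 570 in males. The part of both lists was not tested. The groups share libraries between these comparisons (each group enters a genotype and a sex comparison), so the counts are not independent of each other. For these 4 comparisons, the medians over genes lay within 0.1 of 0, except that upper-quartile scaling moved them to 0.13 for genotype in females and -0.18 for sex in Pou2f3-/- glands.

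**Figure D3:**
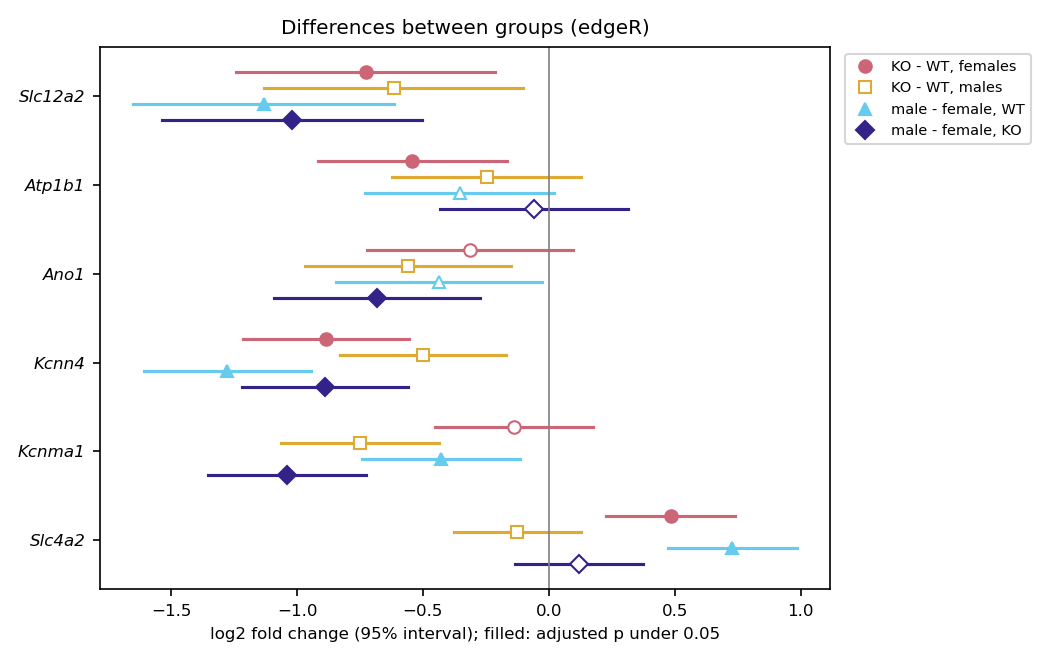
Log2 fold change of each member in the 4 group differences with its 95% interval from edgeR, with filled markers for an adjusted p under 0.05 over all genes tested. Slc4a2 lies right of 0 for genotype in females and for sex in wild-type glands (0.48 and 0.73), whereas the estimates of the other members lie left of 0 throughout.

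Whether the genotype difference itself differed between the sexes was tested as an interaction. It passed for 2 members, with 25.7% of all genes tested called. For Kcnma1, the female difference exceeded the male by 0.61 ± 0.20 (adjusted p = 0.044), and for Slc4a2 by 0.61 ± 0.17 (adjusted p = 0.020). Of 22 other settings, 8 kept the call of Kcnma1 and 13 that of Slc4a2. Kcnma1 lost it with RLE scaling (adjusted p = 0.055) and with the 20 most abundant genes left out of library sizes (0.052), and Slc4a2 with the gene-wise factors of the normalized table (0.051). Leaving out single libraries in turn gave adjusted p up to 0.125 for Kcnma1 (without female wild-type replicate 3) and 0.068 for Slc4a2 (without female Pou2f3-/- replicate 1). Without the 3 libraries high in adipocyte markers the differences were 0.19 and 0.28, with adjusted p of 0.62 and 0.39, and 0 of 19381 genes were called at all, against 4606 of 17893 with every library. Without the 2 libraries high in Muc19 they were 0.57 and 0.62 (adjusted p = 0.14 and 0.082), with 1140 of 18355 genes called. For Slc12a2, Ano1, Kcnn4 and Atp1b1 the interactions were -0.11 ± 0.33, 0.24 ± 0.27, -0.39 ± 0.21 and -0.30 ± 0.25, with adjusted p between 0.19 and 0.83, so a lower level in female but not in male Pou2f3-/- SMGs is not shown for these genes.

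Averaged over the sexes, a comparison added after the data were seen, 5 members were lower in Pou2f3-/- than in wild-type SMGs, where 11.3% of genes tested were called lower and 6.2% higher (17.5% in all). The mean log2 differences were -0.67 ± 0.17 for Slc12a2, -0.69 ± 0.11 for Kcnn4, -0.44 ± 0.13 for Ano1, -0.44 ± 0.10 for Kcnma1 and -0.39 ± 0.12 for Atp1b1, with adjusted p of 0.018, 0.0023, 0.041, 0.013 and 0.043. Slc4a2 gave 0.18 ± 0.08 (adjusted p = 0.15). Leaving out a single library left at least 2 of the 5 calls, those of Kcnn4 and Kcnma1, and that lowest count came without male Pou2f3-/- replicate 2. The calls of Ano1 and Atp1b1 were lost under most of these omissions. Without the libraries high in Muc19, 2 calls were left, and without those high in adipocyte markers 0 were, with log2 differences between -0.19 and -0.54. Calls over all genes fell too, from 3127 of 17893 to 1220 of 18355 and to 167 of 19381.

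Some acinar markers moved with the members. The summed level of the 7, most of it Pip, ranged from 9034 to 13665 CPM in female wild-type SMGs and from 5285 to 6602 in female Pou2f3-/- SMGs. In male wild-type SMGs it ranged from 4801 to 5723, and from 3268 to 4725 in male Pou2f3-/- SMGs. By the test over all genes, 3 of the 7 (Aqp5, Pip and Lpo) were lower in female Pou2f3-/- SMGs, where 19.3% of all genes were called lower, and these and Bhlha15 were lower in male than in female wild-type SMGs, where 16% were. Bhlha15, Aqp5 and Lpo were also lower in male than in female Pou2f3-/- SMGs, where 20.3% were. The log2 differences were -0.83, -0.77 and -0.62 (adjusted p = 0.0012, 0.0023 and 0.021). The part of the acinar markers in the members' differences was not tested beyond the ratios below. By genotype in males, Aqp5, Lpo, Pip and Bhlha15 were at -0.53, -0.70, -0.28 and -0.04 (adjusted p = 0.22, 0.18, 0.71 and 0.95). Bhlha15, an acinar transcription factor gene, overlapped by genotype in both sexes, with 295, 344 and 318 CPM in female wild-type, 307, 236 and 262 in female Pou2f3-/-, 165, 146 and 153 in male wild-type and 192, 127 and 133 in male Pou2f3-/- replicates. Aqp5 fell from 248, 333 and 323 CPM in female wild-type to 169, 136 and 167 in female Pou2f3-/- replicates, and had 126, 143 and 129 in male wild-type and 115, 79.4 and 83.0 in male Pou2f3-/- replicates. Dcpp1, Dcpp2 and Dcpp3, the other acinar markers listed, were high mainly in the libraries with high Muc19 and near 0 in most others, Dcpp2 being at 0 counts in female wild-type replicate 3 and female Pou2f3-/- replicate 1. Markers of granular convoluted tubules, the androgen-responsive duct segment of male SMGs, summed to 5067 to 10828 CPM in females and 90168 to 165174 in males, and their part in the sex differences was not tested.

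Ratios within a library do not depend on scaling, and they were compared by a two-sided exact permutation test within strata over 400 arrangements, whose smallest p is 0.005. Against the mean of all 7 acinar markers, 0 of 6 members differed by genotype or by sex, with log2 differences as large as -1.26 and adjusted p from 0.79 to 1.00 for genotype and from 0.86 to 0.87 for sex. The Dcpp genes spread these ratios widely, and leaving out 1 library moved the differences far. By sex, Slc12a2 and Kcnn4 were at -2.05 and -2.06 without female Pou2f3-/- replicate 3. They were at -0.41 and -0.45 without male wild-type replicate 3. By genotype, Ano1, Kcnma1 and Atp1b1 turned from -0.62, -0.62 and -0.56 to 0.22, 0.15 and 0.28 without female Pou2f3-/- replicate 3. Against Aqp5 alone, Slc12a2 and Kcnn4 differed by 0.07 and 0.04 for genotype (adjusted p = 0.61 and 0.33), whereas Atp1b1 and Slc4a2 were higher in Pou2f3-/- glands by 0.34 and 0.91 (adjusted p = 0.015 for both). These are averages of 0.39 in females and 0.29 in males for Atp1b1 and of 1.41 and 0.41 for Slc4a2. Kcnma1, at 0.79 in females and -0.23 in males, Ano1, at 0.62 and -0.06, and Slc12a2, at 0.23 and -0.08, differed in sign between the sexes, and the averages of Kcnma1 and Ano1, 0.28 each, did not pass either (adjusted p = 0.31 and 0.16). By sex, Kcnn4 relative to Aqp5 was lower in males, by -0.11 on the log2 scale (adjusted p = 0.010), while Atp1b1 and Slc4a2 were higher by 0.77 and 1.40 (adjusted p = 0.010 for both). Slc12a2 relative to Aqp5 differed by -0.11 between the sexes (adjusted p = 0.46), an average of 0.05 in wild type and -0.26 in Pou2f3-/- glands. Ano1 gave 0.41 (adjusted p = 0.053; 0.74 and 0.07) and Kcnma1 0.24 (adjusted p = 0.33; 0.75 and -0.27). Against Aqp5, Bhlha15, Pip and Lpo, chosen after the data were seen, 0 members passed for genotype and the same 3 passed for sex, at -0.19 for Kcnn4, 0.69 for Atp1b1 and 1.32 for Slc4a2 (adjusted p = 0.020, 0.015 and 0.015).

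**Figure D4:**
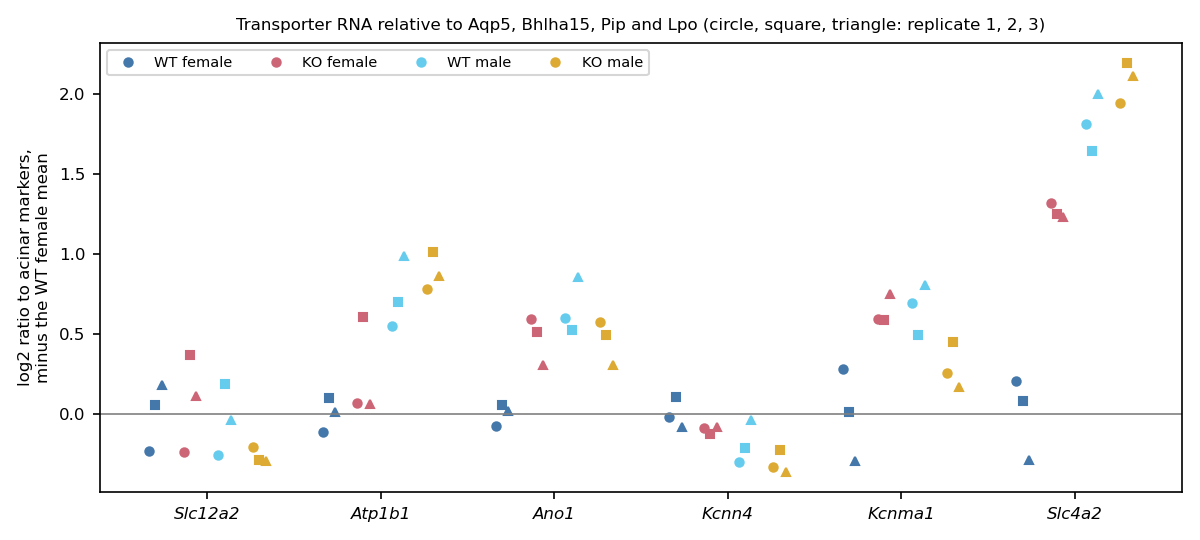
Log2 ratio of each member to the mean log2 level of Aqp5, Bhlha15, Pip and Lpo in each of the 12 glands, minus the mean of the female wild-type (WT) glands, with KO for Pou2f3-/-. Kcnn4 lies lower in males than in females by -0.19 on average, and Slc4a2 and Atp1b1 lie higher in males than in females of the same genotype, by 1.32 and 0.69 on average.

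Pairs of members were compared in the same way, in 30 tests added after the data were seen, with p-values adjusted over the 30. The ratios are of counts not corrected for gene length, so only their differences between groups are read. The ratio of Slc12a2 to Kcnn4 counts was 8.80, 9.87 and 12.2 in female wild-type, 9.22, 14.3 and 11.7 in female Pou2f3-/-, 10.6, 13.5 and 10.2 in male wild-type and 11.1, 9.76 and 10.7 in male Pou2f3-/- replicates 1 to 3. These groups overlapped throughout, and the ratio differed by 0.04 on the log2 scale for genotype and by 0.01 for sex (adjusted p = 0.84 and 0.98). Both are averages of opposite signs, 0.18 in females and -0.11 in males for genotype, and 0.15 in wild type and -0.14 in Pou2f3-/- glands for sex. Kcnn4 relative to Slc4a2, in contrast, was 13.6, 16.1 and 18.3 in female wild-type, 5.98, 6.11 and 6.37 in female Pou2f3-/-, 3.66, 4.38 and 3.86 in male wild-type and 3.29, 2.97 and 2.85 in male Pou2f3-/- replicates. The 4 groups were fully separated in that order, with log2 differences of -0.88 for genotype and -1.51 for sex (adjusted p = 0.014 for both). In all, 6 pairs differed by genotype and 8 by sex.

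All 5 of the other members were lower relative to Slc4a2 in Pou2f3-/- glands, by -0.57 for Atp1b1 (adjusted p = 0.043) and by -0.63 to -0.88 for the rest (adjusted p = 0.014 each). These are averages of unequal differences. For Atp1b1 over Slc4a2 it was -1.02 in females and -0.12 in males, where the ratios overlapped (24.9 to 31.2 in wild-type and 25.2 to 26.8 in Pou2f3-/- glands). For Kcnn4 it was -1.37 and -0.38, for Slc12a2 -1.19 and -0.49, for Ano1 -0.80 and -0.47 and for Kcnma1 -0.62 and -0.64. The remaining pair that differed by genotype was Kcnn4 and Atp1b1, at -0.31 (adjusted p = 0.014). By sex, Slc12a2, Ano1, Kcnn4 and Kcnma1 were lower relative to Slc4a2 in males, by -0.99 to -1.51 (adjusted p = 0.014 each). In wild type these were -1.86, -1.16, -2.01 and -1.16, and in Pou2f3-/- glands -1.16, -0.83, -1.02 and -1.17. Slc12a2 and Kcnn4 were lower relative to Atp1b1 in males by -0.88 and -0.89 (adjusted p = 0.014 for both) and Ano1 by -0.37 (adjusted p = 0.043). The value for Ano1 is an average of -0.08 in wild type and -0.65 in Pou2f3-/- glands. The ratio of Slc12a2 to Atp1b1, for example, was 2.49, 2.61 and 3.03 in female wild-type and 1.55, 1.89 and 1.33 in male wild-type replicates, without overlap. Ano1 was higher relative to Kcnn4 in males by 0.52 (adjusted p = 0.025), an average of 0.85 in wild type and 0.19 in Pou2f3-/- glands. Kcnn4 relative to Kcnma1 was 1.49, 1.95 and 2.13 in female wild-type replicates and between 0.92 and 1.27 in all the others. The direction of its genotype difference was -0.74 in females and 0.25 in males, and the average over the sexes did not pass (-0.25, adjusted p = 0.31).

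**Figure D5:**
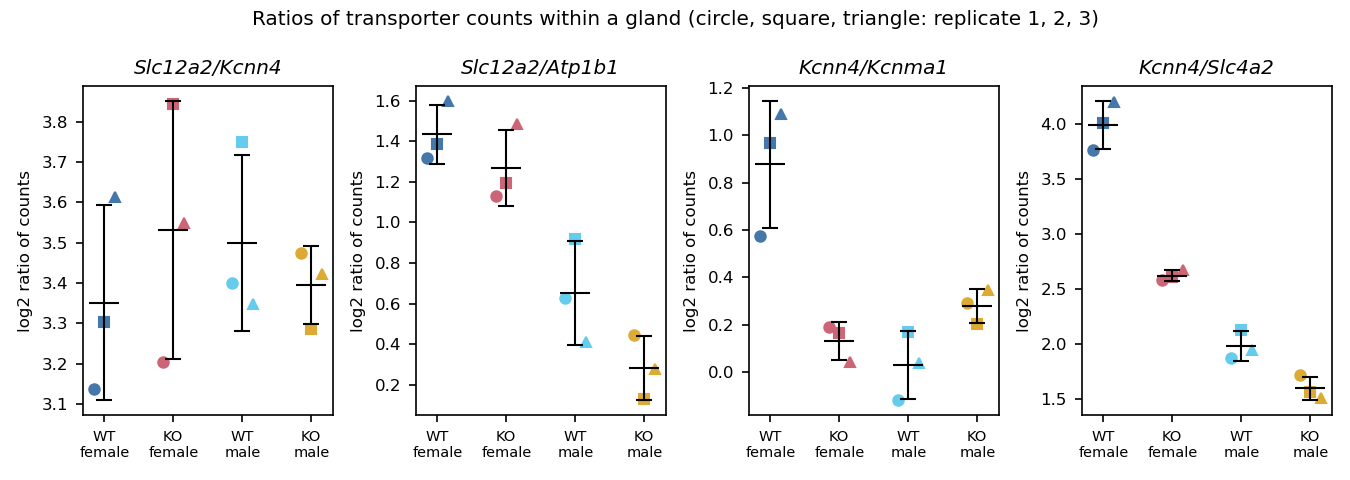
Log2 ratios of counts of 4 pairs of members within each of the 12 glands, with points for replicates 1 to 3 and bars for the mean ± SD of each group, on axes that do not start at 0, with WT for wild type and KO for Pou2f3-/-. Slc12a2/Kcnn4 overlaps between all groups, whereas Kcnn4/Slc4a2 separates the 4 groups, with a log2 difference of -1.51 between the sexes.

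Genes with levels most like each member over the 12 libraries were ranked by Pearson's r of log2 CPM among 8968 protein-coding genes. The libraries fall into 4 groups and share their depth, so r describes mainly the group pattern. Kcnn4 was most like Aqp5 (r = 0.995), Ppp1r1b (0.994) and Asah2 (0.992). Kcnma1 was most like the kinase gene Wnk2 (0.984), followed by Tiam1 (0.955) and Ngef (0.953). Slc12a2 was most like Dbt (0.989), Oxr1 (0.984) and Rgcc (0.983), Ano1 like Gprc5b and Enpp3 (both 0.964) and Ptprf (0.948), and Atp1b1 like Serinc5 (0.951), Cyp2j6 (0.950) and Vmac (0.948). Slc4a2 was most like the calcium release channel gene Itpr1 (0.984), then Arhgef11 (0.981) and Skic2 (0.977).

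Around the members, the sodium pump genes (12 tested of 14) had 4 lower and 1 higher in female Pou2f3-/- SMGs, Atp1b1 included. There 36.9% of all genes tested were called (19.3% lower and 17.6% higher), a share that applies to every list below. Fxyd3, a small pump regulator, fell by 0.77 on the log2 scale (adjusted p = 0.0014). Atp1a4 had at most 2 counts in a female wild-type library and was at least 2.40-fold higher in Pou2f3-/- females. Between wild-type sexes, Fxyd3 was lower in males by -1.05 (adjusted p = 9.1e-05) and Atp1a4 was at least 12.5-fold higher.

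Among cation chloride cotransporters (7 tested of 9), Slc12a2 and Slc12a8 fell in female Pou2f3-/- SMGs, the latter by 0.51 (adjusted p = 0.0498). Slc12a2 was at 96.8 CPM per kb over all libraries, and the next, Slc12a8, at 11.8. In wild-type males, Slc12a7 was higher by 1.93 (adjusted p = 3.8e-07) and Slc12a8 lower by -1.76 (adjusted p = 1.8e-05). The kinases that switch on NKCC1 and their partners (9 tested of 10) had 4 lower and 1 higher in female Pou2f3-/- SMGs. Of all genes, 36.9% were called there. Stk39, the kinase SPAK that phosphorylates NKCC1, had 138, 157 and 185 CPM in wild-type and 85.3, 86.2 and 96.2 in Pou2f3-/- females, and fell by 0.84 (adjusted p = 0.00078). Cab39l and Cab39, which activate SPAK, fell by 0.68 and 0.55 (adjusted p = 0.0029 and 0.0049), and Klhl3, an adaptor for WNK degradation, rose by 0.88 (adjusted p = 0.0043). Wnk2 was lower in wild-type males by -0.55 and in Pou2f3-/- males by -1.41 than in females of the same genotype (adjusted p = 0.043 and 0.00012).

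Among anoctamins and other chloride channels (15 tested of 21), 6 rose and 2 fell in female Pou2f3-/- SMGs, Ano1 being in neither count. The share called over all genes was 36.9%. Best3 rose by 1.72, Ano9 by 1.59 and Ano4 by 1.24 (adjusted p = 0.00067, 0.042 and 0.0084), while Lrrc8b and Clcn3 fell by 0.68 and 0.40. Ano9 was scarce, with at most 12 counts in a female wild-type library. Its mean was 0.17 ± 0.09 CPM in wild-type and 0.53 ± 0.32 in Pou2f3-/- females. Ano1 was the most abundant of the list at 15.4 CPM per kb, with Clcn3 next at 4.45. In wild-type males, Best3, Clcn2 and Cftr, the last of these the duct chloride channel, were higher by 3.00, 2.61 and 2.06 (adjusted p = 3.6e-06, 6.3e-08 and 9.1e-05). Ano1 was at -0.44 and did not pass (adjusted p = 0.088). In Pou2f3-/- glands Ano4 was lower in males by -2.82 (adjusted p = 3.3e-05).

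Of the calcium-activated potassium channels and their partners (11 tested of 16), 3 fell and 1 rose in female Pou2f3-/- SMGs. These counts lie near the share called over all genes, 36.9%. Lrrc26, the auxiliary subunit that lets the Kcnma1 channel open at low calcium, was at 51.1 CPM per kb, above both channel genes. It had 90.7, 131 and 123 CPM in female wild-type, 69.0, 64.1 and 63.6 in female Pou2f3-/-, 38.8, 40.8 and 35.6 in male wild-type and 36.8, 23.2 and 21.8 in male Pou2f3-/- replicates, a pattern in which the females did not overlap. It fell in female Pou2f3-/- SMGs by 0.81 (adjusted p = 0.0044) and was lower in wild-type males by -1.58 (adjusted p = 2.8e-05). Kcnq1 rose in female Pou2f3-/- SMGs by 0.81, and was higher in wild-type males by 1.46. Kcnmb1, a beta subunit of the Kcnma1 channel that is also made by smooth muscle, stood between 0.21 and 0.47 CPM in females and between 1.28 and 2.11 in males (2.45 in wild type, adjusted p = 4.4e-05). The summed level of 7 smooth muscle and myoepithelial markers was higher in the same libraries, at 96.2 to 179 CPM in females and 295 to 489 in males, and its part was not tested.

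Bicarbonate and proton exchange genes (16 tested of 19) had 4 higher and 3 lower in female Pou2f3-/- SMGs, beside 36.9% of all genes called. Slc4a3, another anion exchanger gene, rose by 1.85 (adjusted p = 0.00090), and Slc4a7 and Car12 fell by 0.58 and 0.57. By genotype in males, Slc4a11 was lower by -1.14 (adjusted p = 0.0038) and Slc9a4 by -1.12 (adjusted p = 0.025).

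The genes of the calcium trigger (23 tested of 23) had 10 lower and 5 higher in female Pou2f3-/- SMGs. Over all genes, 36.9% were called. The calmodulin gene Calm2 and the G protein gene Gna11 both fell by 0.69 (adjusted p = 0.0019 and 0.00048). The adrenergic receptor gene Adra1a rose by 0.84, and the calcium release channel genes Itpr2 and Itpr1 by 0.68 and 0.61 (adjusted p = 0.00076, 0.00077 and 0.0045). These same 3 genes were higher in wild-type males, by 2.71, 1.08 and 0.93, whereas the muscarinic receptor gene Chrm3 was lower by -0.46 (adjusted p = 0.019). Itpr1 had 76.3, 79.3 and 65.6 CPM in female wild-type replicates and at least 107 in all the others, which is the pattern of Slc4a2. For the paracellular path (13 tested of 14), 5 fell and 2 rose in female Pou2f3-/- SMGs, again beside 36.9% of all genes. Cldn10, which forms a claudin pore for ions, fell by 1.19 (adjusted p = 0.00077) and was lower in wild-type males by -1.23 (adjusted p = 0.00031). Its CPM was 80.4, 96.0 and 118 in female wild-type and 41.6, 41.3 and 46.6 in female Pou2f3-/- replicates. Tjp3 rose by 1.14 and Cldn1 by 0.53 in female Pou2f3-/- SMGs.

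Over the 106 genes tested in these lists, members included, edgeR called 54 by genotype in females and 2 in males, Slc4a11 and Slc9a4, where 36.9% and 0.235% of all genes were called. At an unadjusted p under 0.05 the male comparison had 27, beside 11.5% of all genes. DESeq2 called 57 in females and 8 in males, beside 34.6% and 2.42% of all genes it tested, adding Kcnma1, Wnk2, Fxyd3, Ano4, Chrm1 and Tjp3 to the male pair. Of these, Kcnma1, Wnk2, Fxyd3, Ano4 and Chrm1 were lower and Tjp3 was higher in male Pou2f3-/- SMGs.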

How the data were processed

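SMGs from female and male C57BL/6J and Pou2f3-/- mice (n = 3 per group, 8 weeks of age) were sequenced as stranded, rRNA-depleted libraries per the study's methods, whereas the labels name the molecule polyA RNA. The authors quantified reads with Salmon 1.10.1, and their expected counts per gene (GRCm39, Gencode) were deposited in a single table. The deposited normalized table holds a signal, the counts divided by factors that differ between genes, and was used only as an alternative. Counts were rounded and tested in R 4.3.3 with edgeR 4.0.16 (TMM, filterByExpr, a mean per group, quasi-likelihood test, Benjamini-Hochberg adjustment over 17893 genes, threshold 0.05). DESeq2 1.42.0 was an alternative, as were other scalings and filters and leaving out each library. The scripts were checked on simulated data. CPM are TMM-adjusted. Symbols and positions came from Gencode on GRCm39 (55563 of 56065 identifiers matched) and upstream sequences from RefSeq on GRCm38.p6. Ratios were compared by exact permutation within strata. The members and lists were chosen with earlier results of these data known. The genes named were all members, up to 3 called genes per direction with the largest change in each list, the most abundant gene per list and the 3 genes most alike per member. Wnk2, Slc4a11, Kcnmb1, Chrm3 and the genes called by DESeq2 in males were, where outside that rule, chosen after their values were seen. The lists share members. Some genes of the lists are not reported here.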

Additional observations from a re-analysis of the deposited data

Results flagged for a closer look

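The genotype difference in females differed from that in males for Kcnma1 by 0.61 on the log2 scale (edgeR interaction, adjusted p = 0.044), with -0.14 in females and -0.75 in males. For Slc4a2 it differed by 0.61 (adjusted p = 0.020), with 0.48 in females and -0.13 in males. Both were marked because the difference between the sexes itself passed its test. The values for Slc4a2 in the 3 female wild-type libraries, 11.3 to 13.8 CPM, were the lowest of all 12, and those for Kcnma1 in the 3 male Pou2f3-/- libraries, 39.6 to 59.8 CPM, were likewise the lowest. Male Pou2f3-/- replicates 2 and 3 also held more adipocyte, erythroid and macrophage marker RNA than the other male libraries (macrophage markers 86.9 and 80.0 CPM against 38.8 to 51.4), and the part of this in the difference was not tested.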

How the results depend on the processing

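For genotype in females (4 members called), 2 calls were left without the libraries high in Muc19. Calls over all genes fell there too, from 6611 of 17893 to 4455 of 18355. Leaving out 1 library at a time gave 2 to 4 members, with 4897 of 18461 to 7071 of 18437 calls over all genes. The changes without the libraries high in adipocyte markers are given above, and that fit left 1 male Pou2f3-/- gland. For males (0 called), Kcnma1 made it 1 without the filter on low counts, 1 with at least 10 counts in every library and 1 with DESeq2, and omissions gave 0 to 3, the 3 without Pou2f3-/- replicate 1, where calls over all genes rose from 42 of 17893 to 635 of 18575. The interaction (2) fell to 1 with RLE, to 1 with the 20 most abundant genes left out of library sizes, to 1 with the authors' factors and to 0 in both settings without the libraries that stood apart, with 0 to 2 over omissions. Sex gave 3 to 5 in wild type and 3 to 4 in Pou2f3-/- glands over omissions (4 each). The smaller differences and lost calls in Pou2f3-/- glands without the adipocyte-rich libraries are given above. The mean over the sexes (5) gave 3 with upper-quartile scaling, 2 without the Muc19-rich and 0 without the adipocyte-rich libraries, and 2 to 5 over omissions. Ratios to acinar markers (0 called) gave 2 for genotype and 3 for sex against Aqp5, 3 for sex against the 4 markers without Dcpp genes, and 0 under every omission. Pair ratios gave 5 to 6 calls for genotype (6) and 6 to 9 for sex (8) over omissions. The cause was not tested for any of these shifts, beyond the smaller number of libraries where some were left out.

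Directions reversed for differences that had not passed. Without the adipocyte-rich libraries, Atp1b1 and Slc4a2 in males were 0.0060 and 0.094, the interaction of Ano1 -0.16 and the sex difference of Atp1b1 in Pou2f3-/- glands 0.22. Over omissions of 1 library that sex difference ran from -0.20 (without male Pou2f3-/- replicate 1) to 0.12 (without female Pou2f3-/- replicate 2), and was 0.03 without male Pou2f3-/- replicate 3. The interaction of Slc12a2 ran from -0.39 (without female wild-type replicate 1) to 0.13 (without male Pou2f3-/- replicate 1), and Slc4a2 by sex in Pou2f3-/- glands was -0.045 with upper-quartile scaling and -0.072 with the authors' factors. Fits to only the groups compared could not apply to the interaction or to the mean over the sexes.

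The replicate numbers did not pair the samples: the deviations of same-numbered libraries correlated between -0.13 and 0.27. With the replicate number as a block, 4 members were called in females, 1 (Kcnma1, adjusted p = 0.0495) in males, 2 in the interaction, 4 in each sex comparison and 4 in the mean over the sexes. Slc4a2 had the lowest counts of the members. Each group held 3 glands, and p-values rest on the spread between them.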
